A study of Homo sapiens with 9 samples.

Results

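A set of 10 genes of Polycomb repression, DNA methylation and the chromatin remodelling that goes with it were followed through RNA sequencing (RNA-Seq) of PC3 xenografts: EZH2, EED and SUZ12, the core of Polycomb repressive complex 2 (PRC2); the DNA methyltransferases DNMT1, DNMT3A and DNMT3B with the maintenance factor UHRF1; the remodeller HELLS and its partner CDCA7; and WHSC1, the older symbol of NSD2. The genes were selected by name, with their lower level in treated tumors already known, so every comparison of these genes with vehicle is a description and carries no test. Of the 10 genes, 9 were listed among the 16008 genes with values in all 9 libraries; UHRF1 was not analysed here.

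PC3 is a human prostate cancer cell line from a bone metastasis, and the tumors were grown under the skin of NSG mice, a strain without mature lymphocytes that still has its own stroma, vessels and macrophages. There were 3 libraries from tumors of mice given PBS as vehicle and 3 each from tumors whose titles name the antibody-drug conjugates P-DXd (patritumab deruxtecan, which binds HER3) and T-DXd (trastuzumab deruxtecan, which binds HER2), which both carry a topoisomerase I inhibitor. Per the series record, male mice aged 11 weeks received 5 mg/kg weekly for 5 cycles from a tumor volume of 90 mm3; the study's methods give the same dose but another age, starting volume and number of cycles. For all 6 treated libraries the treatment field names the conjugate that the title does not, so the names P-DXd-titled and T-DXd-titled follow the titles and which conjugate a group received is unresolved.

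PRC2 represses genes by methylating lysine 27 of histone H3, with EZH2 as its catalytic subunit. DNMT1, guided by UHRF1, copies DNA methylation onto new strands after replication, and HELLS, a nucleosome remodelling ATPase that is brought to chromatin by CDCA7, opens nucleosomes for this step. WHSC1 methylates lysine 36 of histone H3, a mark that limits PRC2 and attracts DNMT3A. EZH2 is known for its high level in metastatic prostate cancer, and several of these genes are textbook targets of E2F, the transcription factors that switch on genes for S phase.

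Because these genes share that textbook link, their RefSeq promoters (GRCh38.p14, 250 bases before to 50 after each listed start) were searched on both strands for the E2F consensus words TTTCCCGC, TTTCGCGC, TTTGCCGC and TTTGGCGC. A word was found in 7 of the 10 genes (EZH2, SUZ12, DNMT1, UHRF1, CDCA7, HELLS and WHSC1) and in 8 of their 18 promoter windows. Among all genes with a RefSeq window, 3.992% of 27305 genes and 3.315% of 35116 windows held one. No word was in the windows of EED, DNMT3A or DNMT3B. A match describes these letters only and is not a binding site by itself. The windows below show the words of the measured genes in their gene's own direction, with the word in capitals, or its reverse complement where the match was on the other strand, and flanking bases in lower case:
EZH2: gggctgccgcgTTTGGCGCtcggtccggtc
SUZ12: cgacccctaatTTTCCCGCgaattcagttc
DNMT1: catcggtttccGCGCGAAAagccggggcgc
CDCA7: tgtgtcccaacGCGGGAAAgacagcccgag
HELLS, distal: aaccgcaagctGCGCCAAAtctcgcgcagc
HELLS, proximal: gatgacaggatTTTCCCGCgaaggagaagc
WHSC1: cggcgcgcactTTTCCCGCggcttctgcga
The windows lie at chr7:148884272-148884301 on the minus strand (EZH2), chr17:31936807-31936836 on the plus strand (SUZ12), chr19:10194937-10194966 on the minus strand (DNMT1), chr2:173354796-173354825 on the plus strand (CDCA7), chr10:94545701-94545730 and chr10:94545769-94545798 on the plus strand (HELLS) and chr4:1871305-1871334 on the plus strand (WHSC1). In DNMT1 and HELLS the nearest word began 2 and 8 bases before the listed start. In 1 of the 2 windows of EZH2 it began at base 2, counting the listed start as base 1. The words of CDCA7, the distal word of HELLS and that of WHSC1 began 65, 76 and 77 bases before the start, and that of SUZ12 began 189 bases before it.

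Levels are given as CPM, the deposited counts of a gene as a share of the library's total after TMM normalization, scaled as edgeR's cpm function does. Total counts of the 9 libraries ran from 54480915 to 125538301, with the vehicle libraries the deepest. The measured genes had between 189 and 28222 counts in a library. PBS replicate 1 stood apart: a chi-square statistic of its counts over genes was 316 and 388 per gene against the other PBS libraries, which differed from each other by 37.5. P-DXd-titled replicate 2 carried skeletal muscle genes at a summed 3043 CPM. Values without these libraries are given for some results only.

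The genes of PRC2 did not have equal differences from vehicle. EZH2, the catalytic subunit, was at 48.3, 33.4 and 32.9 CPM in PBS replicates 1 to 3, at 14.6, 19.4 and 11.2 CPM in P-DXd-titled tumors and at 13.3, 14.0 and 13.1 CPM in T-DXd-titled tumors. Every treated library was below every PBS library, and the treated mean was 37.3% of the PBS mean. SUZ12, the scaffold of the complex, was at 78.7, 60.6 and 57.1 CPM in PBS, at 47.3, 48.6 and 43.4 CPM in the P-DXd-titled and at 49.9, 46.0 and 43.9 CPM in the T-DXd-titled tumors. The groups again did not overlap, but the treated mean was 71.0% of PBS. SUZ12 has a near-identical partial pseudogene, SUZ12P1, and how the authors' counting divided reads between them is not stated, so its level is uncertain.

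EED, which reads the mark that PRC2 writes, was at 34.9, 27.3 and 25.6 CPM in PBS, at 18.9, 26.2 and 20.2 CPM in the P-DXd-titled and at 23.6, 25.6 and 22.2 CPM in the T-DXd-titled tumors. EED was the measured gene whose groups overlapped: P-DXd-titled replicate 2 lay above the lowest PBS library, and the treated mean was 77.8% of PBS. On the log2 scale, the fitted difference from PBS was −1.33 (SE 0.24) in the P-DXd-titled and −1.50 (SE 0.17) in the T-DXd-titled tumors for EZH2. The same differences were −0.48 (SE 0.14) and −0.49 (SE 0.14) for SUZ12 and −0.41 (SE 0.18) and −0.29 (SE 0.14) for EED. Without PBS replicate 1 those of EED became −0.27 and −0.15, and −0.21 in place of −0.36 over all treated libraries. Without the same library those of EZH2 became −1.13 and −1.30 and those of SUZ12 −0.33 and −0.34.

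The DNA methyltransferases split in the same way. DNMT1, the maintenance enzyme, was at 317, 220 and 189 CPM in PBS, at 92.2, 95.4 and 84.2 CPM in the P-DXd-titled and at 85.4, 82.3 and 77.3 CPM in the T-DXd-titled tumors. The treated libraries lay close together, far below the lowest PBS library, with a mean of 35.6% of PBS. DNMT1 overlaps S1PR2 on the coordinates of the tables, and whether strand was used in counting is not stated.

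DNMT3B, a de novo methyltransferase whose loss causes the immunodeficiency syndrome ICF, was at 14.3, 11.3 and 9.08 CPM in PBS, at 4.05, 4.13 and 2.87 CPM in the P-DXd-titled and at 4.22, 3.81 and 3.46 CPM in the T-DXd-titled tumors. Its groups did not overlap, and its treated mean was 32.5% of PBS. DNMT3A, the other de novo enzyme, was at 13.3, 15.9 and 15.9 CPM in PBS, at 11.3, 11.3 and 9.28 CPM in the P-DXd-titled and at 13.1, 11.9 and 11.1 CPM in the T-DXd-titled tumors. All treated libraries were below all PBS libraries by a narrow gap, with PBS replicate 1 the lowest of its group, and the treated mean was 75.3% of PBS. The log2 differences in the P-DXd-titled and the T-DXd-titled tumors were −1.40 (SE 0.19) and −1.57 (SE 0.19) for DNMT1, −1.63 (SE 0.24) and −1.59 (SE 0.21) for DNMT3B, and −0.49 (SE 0.15) and −0.32 (SE 0.13) for DNMT3A. Without PBS replicate 1 those of DNMT1 became −1.17 and −1.33, those of DNMT3B −1.46 and −1.41, and those of DNMT3A −0.58 and −0.40.

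CDCA7 and HELLS, both also ICF syndrome genes, had the lowest treated levels relative to vehicle among the 9 measured genes. CDCA7 was at 55.8, 33.7 and 30.1 CPM in PBS, at 8.11, 5.89 and 4.24 CPM in the P-DXd-titled and at 3.15, 3.23 and 2.98 CPM in the T-DXd-titled tumors. Its 3 groups were fully separate, with each P-DXd-titled library above each T-DXd-titled library. The treated mean was 11.5% of PBS, and the log2 difference was −2.69 (SE 0.32) in the P-DXd-titled and −3.67 (SE 0.26) in the T-DXd-titled tumors. Leaving out PBS replicate 1 made these −2.38 and −3.35.

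HELLS was at 62.0, 25.4 and 21.0 CPM in PBS, at 6.93, 7.49 and 5.86 CPM in the P-DXd-titled and at 5.50, 6.20 and 5.38 CPM in the T-DXd-titled tumors. PBS replicate 1 was far above the other vehicle tumors, so the PBS mean of 36.1 ± 22.5 CPM (SD, n = 3) is poorly defined. The treated mean was 17.2% of PBS, and the log2 difference was −2.40 (SE 0.41) in the P-DXd-titled and −2.66 (SE 0.42) in the T-DXd-titled tumors. Without PBS replicate 1 these became −1.77 and −2.03.

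WHSC1 had the tightest vehicle values. It was at 160, 168 and 161 CPM in PBS, at 68.9, 70.1 and 61.9 CPM in the P-DXd-titled and at 65.6, 63.1 and 57.5 CPM in the T-DXd-titled tumors. The groups did not overlap, and the treated mean was 39.6% of PBS. Its log2 difference was −1.27 (SE 0.096) in the P-DXd-titled and −1.39 (SE 0.084) in the T-DXd-titled tumors. PBS replicate 1, the highest library for EZH2, EED, SUZ12, DNMT1, DNMT3B, CDCA7 and HELLS, was not the highest for WHSC1 or DNMT3A.

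**Figure D1:**
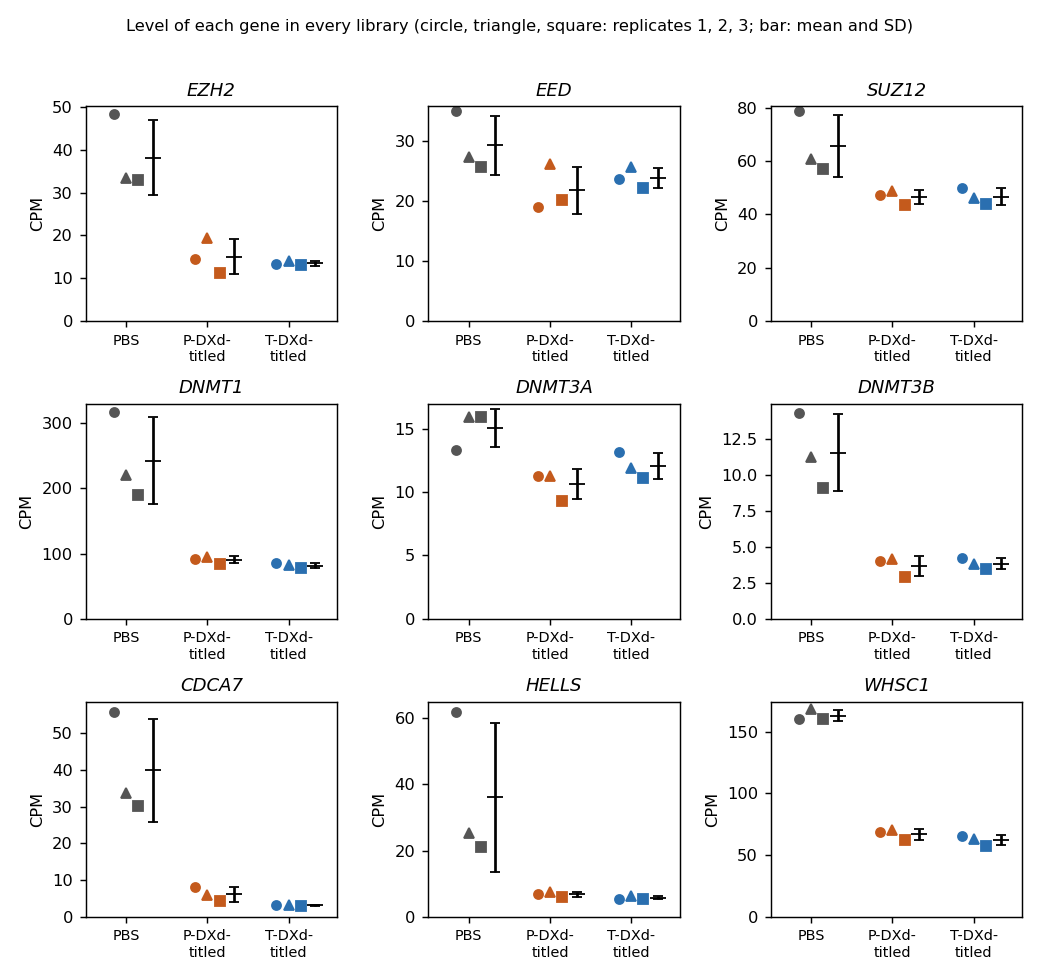
Level of each of the 9 measured genes in CPM (vertical axis from 0) in 3 PBS, 3 P-DXd-titled and 3 T-DXd-titled libraries; circles, triangles and squares are replicates 1, 2 and 3 and black bars are the mean and SD. All 6 treated points lie below all 3 PBS points in 8 panels, and in the EED panel the groups overlap.

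With calls made at an adjusted p of no more than 0.05 (edgeR quasi-likelihood test, Benjamini-Hochberg over all genes tested) and a fold change of at least 1.5, EZH2, DNMT1, DNMT3B, CDCA7, HELLS and WHSC1 were called lower in each comparison with PBS, which is 6 of 9. These calls restate the selection. The share of all genes called lower was 13.8% in P-DXd-titled tumors, 15.5% in T-DXd-titled tumors and 17.1% with all 6 treated libraries against PBS. In 8 of the 9 genes all 6 treated libraries were below all 3 PBS libraries, as in 25.5% of all genes tested. EED, SUZ12 and DNMT3A stayed under the fold change minimum. The comparisons share their PBS libraries and are not independent of each other. In bulk tumor RNA, fewer cells that express a gene and less RNA of it per cell cannot be told apart.

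**Figure D2:**
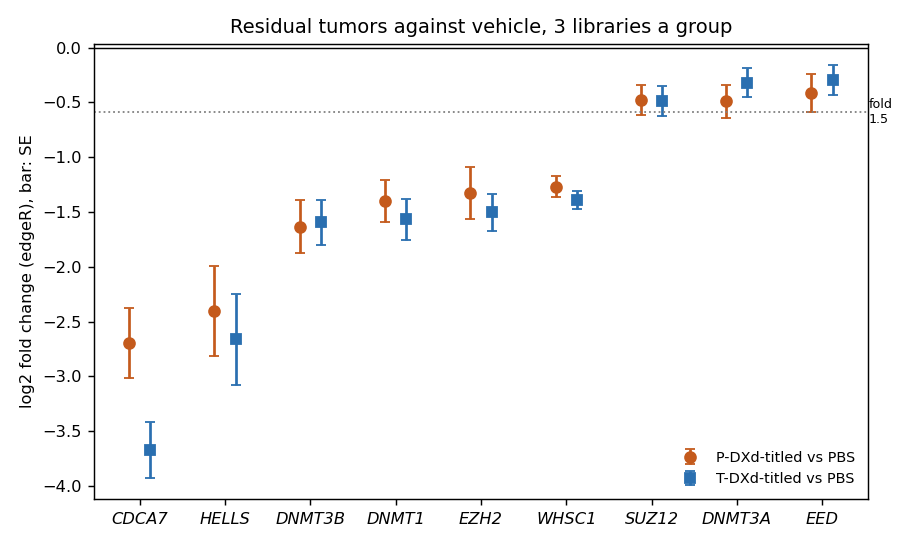
Log2 fold change (vertical axis, edgeR, bars SE) of each measured gene in P-DXd-titled (circles) and T-DXd-titled (squares) tumors against the same 3 PBS libraries; the dotted line marks a fold change of 1.5. CDCA7 and HELLS lie lowest, from −2.40 to −3.67, and SUZ12, DNMT3A and EED lie above the dotted line in both groups.

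Each title ends in a code of its own, whose first digit splits each group, though the labels do not say what the code or digit stands for. Within the libraries of digit 1 (3 treated, 2 PBS) and of digit 2 (3 treated, 1 PBS) the mean log2 difference between treated and PBS was −1.37 and −1.37 for EZH2, −1.54 and −1.22 for DNMT1, and −3.02 and −3.12 for CDCA7. It was −2.59 and −1.85 for HELLS and −0.44 and −0.18 for EED. Every measured gene was lower in treated tumors within both digits.

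The conjugate groups were then compared with each other, a contrast that did not serve to select the genes. None of the 9 genes was called, nor was any of the 81 related genes tested, and over all genes 0.0273% were called. CDCA7 came nearest: it was higher in P-DXd-titled tumors by 0.96 on the log2 scale (SE 0.22), with an unadjusted p of 0.00145 and an adjusted p of 0.809 by edgeR's quasi-likelihood test. It was the only measured gene with an unadjusted p under 0.05. DESeq2, the tool of the study, called CDCA7 at an adjusted p of 0.00748 and none of the other 8 genes. Over all alternatives the difference stayed between 0.70 and 1.17, and each P-DXd-titled library was above each T-DXd-titled library. In the same contrast all 10 mitosis genes had higher values in P-DXd-titled tumors, with a median log2 difference of 0.51, a highest of 1.41 and 9 with an unadjusted p under 0.05, though none was called. Whether CDCA7 differed beyond these genes was not tested.

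None of the other genes was called between the conjugate groups. Taking 2 SE on either side, the log2 difference lay between −0.17 and 0.49 for EZH2, −0.38 and 0.11 for EED, and −0.16 and 0.15 for SUZ12. It lay between 0.0075 and 0.29 for DNMT1, −0.42 and 0.054 for DNMT3A, and −0.44 and 0.33 for DNMT3B. For HELLS the bounds were −0.044 and 0.54, and for WHSC1 −0.040 and 0.26. The interval of DNMT1 left out 0, and those of the other genes held it. The unadjusted p of DNMT1 was still not under 0.05 by edgeR's quasi-likelihood test. With 3 libraries a group, 2 SE is too narrow a bound to serve as a test. All 8 had an adjusted p of 1.00 by edgeR, which does not show that the conjugates act alike.

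Levels of different genes were compared per kilobase of exon. In PBS tumors DNMT1 was highest at 15.7 ± 4.33 CPM per kilobase (SD, n = 3), followed by SUZ12 at 9.998 ± 1.77, CDCA7 at 8.49 ± 2.97, WHSC1 at 8.01 ± 0.226, EED at 4.18 ± 0.709, EZH2 at 3.55 ± 0.814, HELLS at 2.54 ± 1.58, DNMT3B at 1.68 ± 0.385 and DNMT3A at 1.09 ± 0.109. Over the PBS libraries the ranges of SUZ12, CDCA7 and WHSC1 overlapped from one to the next, as did those of EED, EZH2, HELLS and DNMT3B. In the 6 treated libraries SUZ12 was highest at 7.10 ± 0.396 CPM per kilobase, DNMT1 second at 5.60 ± 0.431 and HELLS lowest at 0.437 ± 0.0587. CDCA7 moved from rank 3 in PBS to rank 6 at 0.980 ± 0.433, where its range overlapped those of EZH2 and DNMT3A. These ranks depend on the gene length used: with the longest transcript in place of all exons, DNMT1 stayed highest in treated tumors, at 12.0 against 10.3 for SUZ12, with overlapping ranges.

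Ratios within a library set each gene against a partner or paralog, again per kilobase of exon. EZH1, the other catalytic subunit of PRC2, was at 0.812 ± 0.218 of the EZH2 level in PBS, 2.78 ± 0.722 in the P-DXd-titled and 3.09 ± 0.0806 in the T-DXd-titled tumors (SD, n = 3). The lowest treated ratio, 2.204, was above the highest PBS ratio, 0.945. With the longest transcript as gene length the ratios were 0.512, 1.75 and 1.95, so EZH1 was below EZH2 in PBS and above it in treated tumors by both lengths. EZH1 itself was at 19.3 ± 1.52 CPM in PBS, 26.0 ± 1.79 in the P-DXd-titled and 26.95 ± 1.62 in the T-DXd-titled tumors, with a log2 difference of 0.45 (SE 0.086, edgeR adjusted p = 0.00119) over all treated libraries, under the fold change minimum.

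The ratio of EZH2 to EED was 0.842 ± 0.0525 in PBS, 0.447 ± 0.0748 in the P-DXd-titled and 0.367 ± 0.0133 in the T-DXd-titled tumors. EED to SUZ12 was 0.419 ± 0.00299, 0.438 ± 0.0649 and 0.479 ± 0.0397, so the non-catalytic subunits kept nearly the same proportion while that of EZH2 was lower. RBBP4 and RBBP7, the histone-binding subunits that PRC2 shares with other complexes, had log2 differences of −0.09 (SE 0.065, edgeR adjusted p = 0.277) and −0.14 (SE 0.114, edgeR adjusted p = 0.322) over all treated libraries.

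CDCA7L, the paralog of CDCA7, was at 76.2 ± 5.22 CPM in PBS, 78.2 ± 5.04 in the P-DXd-titled and 78.4 ± 3.59 in the T-DXd-titled tumors, with a log2 difference of 0.04 (SE 0.069, edgeR adjusted p = 0.651). The ratio of CDCA7L to CDCA7 was 2.44 ± 0.591 in PBS, 16.4 ± 4.37 in the P-DXd-titled and 30.3 ± 2.00 in the T-DXd-titled tumors. DNMT3A to DNMT3B was 0.681 ± 0.206, 1.46 ± 0.135 and 1.57 ± 0.0266, which put DNMT3A below DNMT3B in every PBS library and above it in every treated library. UHRF2, the paralog of UHRF1, was at 77.2 ± 4.58 CPM in PBS, 53.4 ± 4.52 in the P-DXd-titled and 55.3 ± 3.13 in the T-DXd-titled tumors. Its log2 difference of −0.51 (SE 0.073, edgeR adjusted p = 0.000221) was under the fold change minimum. On the coordinates of the tables, UHRF2 overlaps C9orf38 and CDCA7L overlaps DNAH11.

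Proliferation genes moved with treatment, so each gene was also set against the S phase genes of its own library. All 14 S phase genes, such as TYMS and CDC45, and all 10 mitosis genes, such as PLK1 and MKI67, were called lower in each comparison with PBS. Their summed level was 1476 to 2343 CPM in PBS and 697 to 846 CPM in treated tumors for S phase, and 1166 to 1936 CPM against 173 to 309 CPM for mitosis. The part of this shift in the lower level of the 9 genes was not tested.

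The median log2 CPM of the S phase genes was 1.05 lower in treated tumors, shown as a treated minus PBS value of −1.05. Measured against that median, CDCA7 was lower in treated tumors by a further −2.11 and HELLS by −1.33 on the log2 scale, and every treated library was below every PBS library in both. Against the S phase median HELLS was at −0.82 in PBS replicate 1 and at −1.81 and −1.95 in PBS replicates 2 and 3. The −1.33 of HELLS therefore rests partly on PBS replicate 1. DNMT3B, DNMT1, EZH2 and WHSC1 had differences of −0.56, −0.42, −0.37 and −0.30, and those of EZH2 and WHSC1 overlapped between the groups. The S phase median is one of levels, and it fell less than the typical gene of the list. Over all treated libraries the 14 genes had a median fitted log2 difference of −1.45. Fitted values of DNMT3B, DNMT1, EZH2 and WHSC1 were −1.62, −1.49, −1.42 and −1.34, near that of the S phase genes. CDCA7 was at −3.11 and HELLS at −2.54, or −1.89 without PBS replicate 1. SUZ12, DNMT3A and EED lay higher against the S phase median in treated tumors, by 0.56, 0.63 and 0.69. The mitosis median had a treated minus PBS value of −2.82, beyond that of each of the 9 genes other than CDCA7.

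**Figure D3:**
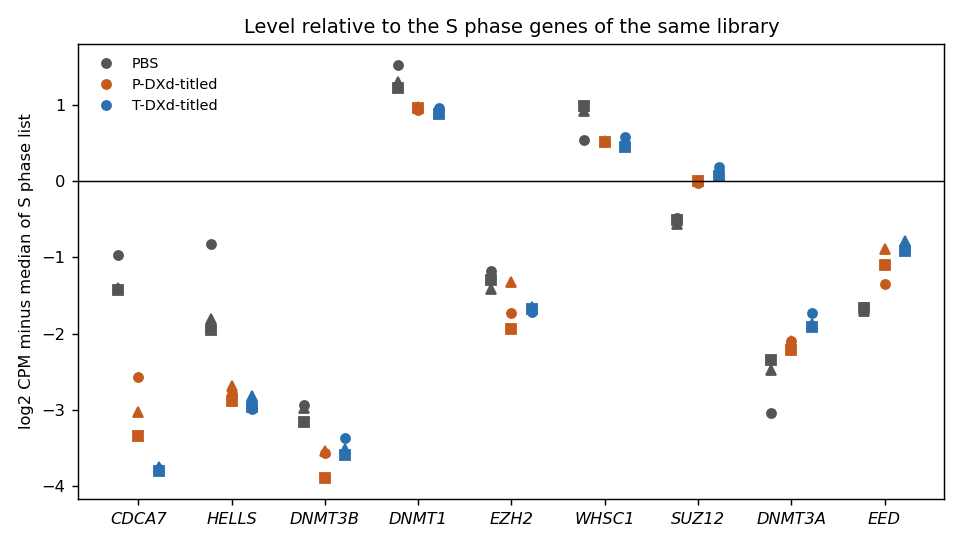
Log2 CPM of each measured gene minus the median log2 CPM of 14 S phase genes in the same library (vertical axis), for PBS, P-DXd-titled and T-DXd-titled libraries; circles, triangles and squares are replicates 1, 2 and 3. CDCA7 and HELLS lie lower in all treated libraries, while SUZ12, DNMT3A and EED lie higher.

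The E2F and pocket protein genes were read from a list of 11. Of these, 7 were called lower and none higher in each comparison with PBS. Over all genes tested, 13.8%, 15.5% and 17.1% were called lower in P-DXd-titled, T-DXd-titled and all treated tumors. E2F7 fell by 2.59 (SE 0.175), E2F8 by 2.02 (SE 0.190) and E2F1 by 1.21 (SE 0.127) on the log2 scale over all treated libraries, with edgeR adjusted p-values of 3.79e-06, 1.69e-05 and 3.35e-05. E2F7 and E2F8 are repressors and E2F1 an activator of transcription. E2F6 went the other way and was not called. It was at 27.7 ± 3.03 CPM in PBS, 37.4 ± 2.69 in the P-DXd-titled and 38.4 ± 0.538 in the T-DXd-titled tumors. Every treated library was above every PBS library for E2F6. RB1, the pocket protein that restrains E2F, had a log2 difference of −0.25 (SE 0.102, edgeR adjusted p = 0.0567).

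The genes whose level over the 9 libraries was most like that of each measured gene, by Pearson correlation of log2 CPM against 15061 genes, were named as a description, since the libraries share the split into PBS and treated tumors. DNMT1 was nearest to TRIP13, ZWINT and PKMYT1 (r = 0.998 each), which act in mitosis and its checkpoints. CDCA7 was nearest to the spindle checkpoint kinase gene BUB1 (r = 0.998), HELLS to RFC2, a subunit of the replication clamp loader (r = 0.998), and WHSC1 to CKAP5, a microtubule polymerase gene (r = 0.998). EZH2 was nearest to H2AFV (r = 0.994) and SUZ12 to UTP18 (r = 0.996). EED and DNMT3A had less close neighbours, RPP21 (r = 0.969) and RP11-295P9.3 (r = 0.964).

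The rest of the same pathways was read from 10 lists of 84 related genes, of which 82 were listed and 81 tested. Over all treated libraries 13 were called lower and 5 higher, in P-DXd-titled tumors 12 and 5, and in T-DXd-titled tumors 13 and 5. The share of all genes called higher was 11.2% in P-DXd-titled tumors, 13.1% in T-DXd-titled tumors and 15.2% over all treated libraries. Called lower, 13 of 81 is close to the 17.1% of all genes, and the median log2 difference of the list was −0.20 against −0.01 over all genes. Without P-DXd-titled replicate 3, the P-DXd-titled calls were 8 lower and 1 higher.

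Among 9 PRC2 partners tested, JARID2 and C17orf96 (EPOP), accessory subunits that help to place the complex, fell. JARID2 went from 68.1 ± 9.50 CPM in PBS to 37.3 ± 3.72 in the P-DXd-titled and 33.9 ± 2.37 in the T-DXd-titled tumors, a log2 difference of −0.94 (SE 0.10, edgeR adjusted p = 3.5e-05). C17orf96 went from 16.0 ± 4.97 CPM to 6.16 ± 0.558 and 6.49 ± 0.725, a log2 difference of −1.34 (SE 0.165, edgeR adjusted p = 8.75e-05). The other 7 partners, EZH1, RBBP4 and RBBP7 among them, were not called.

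PRC1 is the complex that binds the PRC2 mark or ubiquitinates histone H2A. Of its 20 subunit genes 1 fell and 2 rose. PCGF6 fell by 0.92 (SE 0.164, edgeR adjusted p = 0.000859) on the log2 scale. CBX7, which reads the PRC2 mark, rose from 16.9 ± 4.89 CPM to 33.1 ± 1.83 and 34.4 ± 2.61, a log2 difference of 1.00 (SE 0.163, edgeR adjusted p = 0.000497), and CBX6 rose by 0.61 (SE 0.079, edgeR adjusted p = 0.000115). No gene of the Polycomb opponents was called among 5 tested, and 9204 of 15070 genes had an unadjusted p under 0.05 in the same fit. The H3K27 demethylase genes KDM6A and KDM6B had log2 differences of 0.11 (SE 0.094) and −0.12 (SE 0.128), with edgeR adjusted p-values of 0.321 and 0.427.

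WHSC1 differed in size from the other genes that act on lysine 36 of histone H3. None of these 8 genes was called in any comparison with PBS. NSD1, WHSC1L1 (NSD3) and SETD2 had log2 differences of −0.48 (SE 0.098), −0.41 (SE 0.065) and −0.48 (SE 0.072) over all treated libraries, against −1.34 (SE 0.071) for WHSC1. Their edgeR adjusted p-values were 0.00188, 0.000396 and 0.000306, so they missed the fold change minimum and not the p threshold. NSD1 gained a call in each comparison with PBS when PBS replicate 1 was left out. On the coordinates of the tables WHSC1L1 overlaps DDHD2.

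Around DNA methylation, PCNA and LIG1, which work on newly made DNA strands where DNMT1 acts, fell on the log2 scale, with differences of −1.07 (SE 0.132) and −0.97 (SE 0.071), with edgeR adjusted p-values of 8.66e-05 and 4.39e-06. ZBTB24, the ICF syndrome gene that activates CDCA7, had a log2 difference of −0.36 (SE 0.086, edgeR adjusted p = 0.00514), under the fold change minimum. Of 5 genes of DNA demethylation, TET1 and TDG fell, by 0.77 (SE 0.187) and 0.72 (SE 0.092), with edgeR adjusted p-values of 0.00508 and 0.000112. TET2 and TET3 had differences of −0.45 (SE 0.125) and −0.33 (SE 0.10) and were not called. Without PBS replicate 1, TDG lost its call and TET2 gained one.

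Among 7 genes of methyl-CpG readers, ZBTB4 rose by 0.96 (SE 0.209, edgeR adjusted p = 0.0029) on the log2 scale. In the supply of methyl groups, MAT2A, which makes S-adenosylmethionine, and MTR, the methionine synthase gene, had log2 differences of −0.73 (SE 0.103) and −0.62 (SE 0.136) and were called lower. Their edgeR adjusted p-values were 0.000201 and 0.00286. MTR lost its call without PBS replicate 2 or 3 or P-DXd-titled replicate 3, and on the coordinates of the tables MAT2A overlaps GGCX.

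The H3K9 methylation list held 8 genes, of which 3 fell: SUV39H2 by 1.14 (SE 0.106), SUV39H1 by 0.82 (SE 0.115) and CBX3 by 0.75 (SE 0.078) on the log2 scale. SUV39H1 and SUV39H2 write this mark of heterochromatin and CBX3 reads it, and their edgeR adjusted p-values were 1.51e-05, 0.000197 and 3.1e-05 in the order first given. SUV39H2 overlaps DCLRE1C and CBX3 overlaps HNRNPA2B1 on the coordinates of the tables. Of 7 other remodeller genes, CHD1 fell by 0.79 (SE 0.070) and SMARCA2 rose by 0.97 (SE 0.090), with edgeR adjusted p-values of 1.14e-05 and 1.57e-05. HELLS had a log2 difference of −2.54 (SE 0.28) in the same fit.

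**Figure D4:**
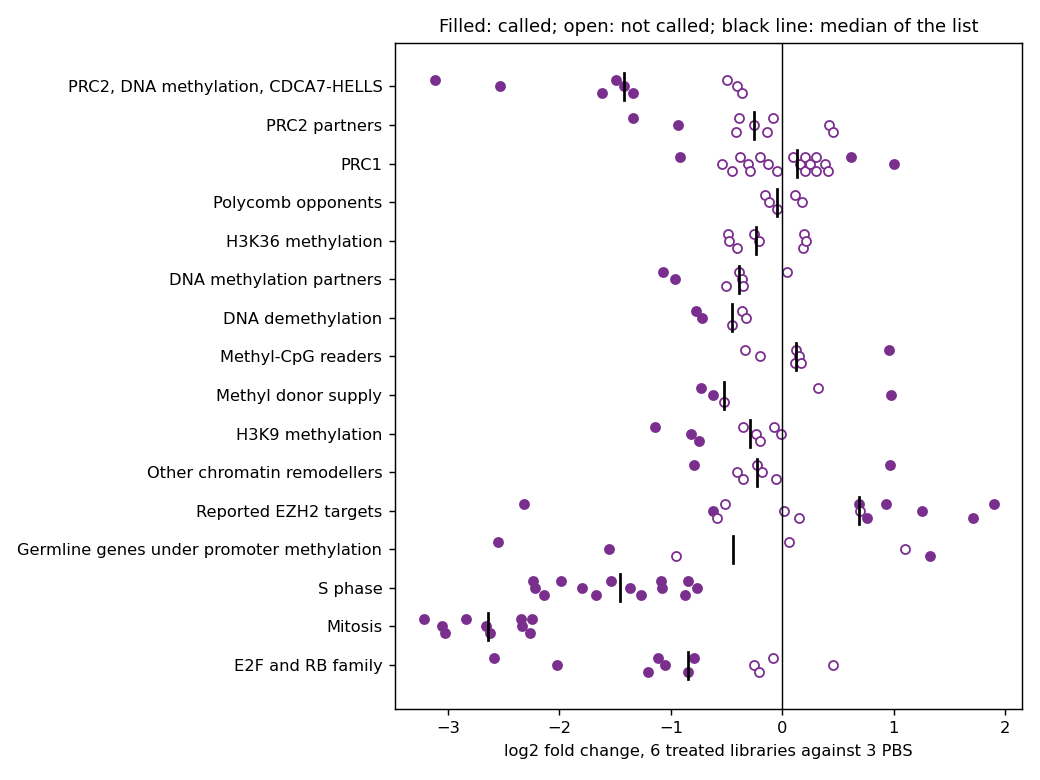
Log2 fold change over 6 treated against 3 PBS libraries (horizontal axis) for the measured genes (top row) and the genes of each list; each circle is a gene, filled where called, and black lines are medians. The S phase and mitosis genes are all called lower, while most genes of the related lists are open circles near 0.

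Genes reported in cancer cells to be repressed through EZH2 were read next. Of 13 genes, 6 were called higher and 2 lower over all treated libraries, 5 and 1 in P-DXd-titled tumors, and 5 and 3 in T-DXd-titled tumors. Over all genes tested, the shares called higher and lower were 15.2% and 17.1% for all treated libraries, 11.2% and 13.8% for P-DXd-titled, and 13.1% and 15.5% for T-DXd-titled tumors. TIMP3, an inhibitor of metalloproteinases, rose from 1.62 ± 0.641 CPM to 5.30 ± 1.74 and 6.72 ± 0.801, a log2 difference of 1.90 (SE 0.300, edgeR adjusted p = 0.000406). CDKN1C, an inhibitor of cyclin-dependent kinases, rose from 10.6 ± 4.52 CPM to 33.3 ± 1.56 and 36.1 ± 2.34, a log2 difference of 1.71 (SE 0.241, edgeR adjusted p = 0.0002). BMPR1B rose by 1.25 (SE 0.255, edgeR adjusted p = 0.00194) on the log2 scale, and DAB2IP, CDKN2A and FBXO32 were also called higher.

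VASH1, an inhibitor of angiogenesis, was called lower, from 9.01 ± 1.14 CPM to 5.81 ± 1.13 and 5.89 ± 0.542, a log2 difference of −0.62 (SE 0.145, edgeR adjusted p = 0.00419). Without PBS replicate 1 the counts over all treated libraries were 4 higher and 2 lower, and without P-DXd-titled replicate 3 those of P-DXd-titled tumors were 1 and 1. The mark on these genes was not measured. Germline genes that are silenced by promoter methylation in most tissues were mostly near or below detection: of 15 named, 8 were listed and 6 tested. PIWIL2 fell from 0.984 ± 0.171 CPM to 0.455 ± 0.0708 and 0.209 ± 0.0728, a log2 difference of −1.56 (SE 0.378, edgeR adjusted p = 0.00522). STK31, at 0.673 ± 0.346 CPM in PBS, was also called lower, and RPL10L, a close copy of RPL10 whose reads it may share, was called higher.

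The label of the cells was checked against markers. The PC3 markers KRT8, KRT18 and EPCAM summed to 965 to 1286 CPM in PBS and 2031 to 2331 CPM in treated tumors. KLK3 was not analysed here.

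Whether reads of mouse cells were removed is not stated, so markers of host cells were summed. The 10 fibroblast markers, all listed, summed to 1094 to 2129 CPM in PBS, 1263 to 2191 in the P-DXd-titled and 2116 to 2281 in the T-DXd-titled tumors. COL1A1, at 975 CPM in PBS on average, made up most of this sum. POSTN, COL3A1, PDGFRA and COL1A2 were called higher in T-DXd-titled tumors and over all treated libraries, by 0.84 to 1.58 on the log2 scale in the latter, and none of the list was called in P-DXd-titled tumors. The macrophage markers, 5 of 8 listed, summed to 3.21 to 3.51, 7.18 to 10.7 and 11.5 to 15.7 CPM, with CD68 at 0 in P-DXd-titled replicate 1 and T-DXd-titled replicate 2. The 6 skeletal muscle markers, all listed, summed to 6.76 to 40.0, 60.5 to 3043 and 153 to 202 CPM, with MYH1 at 0 in PBS replicate 3. Their part in the levels of the 9 genes was not tested. Without P-DXd-titled replicate 2, the log2 differences of EZH2 and EED from PBS in P-DXd-titled tumors were −1.55 and −0.56.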

How the data were processed

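Total RNA of 9 PC3 xenografts was sequenced from TruSeq mRNA libraries. Per the study's methods Cutadapt, STAR (GRCh38) and featureCounts were used for trimming, alignment and counting, and what the authors deposited are raw counts per gene. The tables' coordinates are of a build they do not name. Groups were taken from titles, and 0 columns of per-sample values were left unused. Each title carries a different code, but the labels do not say whether codes stand for separate mice, so p-values measure the spread between these samples. The genes and lists were chosen with earlier results of these data known.

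Counts were tested with edgeR 4.0.16 in R 4.3.3 (TMM, filterByExpr, two-sided quasi-likelihood F test, Benjamini-Hochberg), on the 6 libraries compared or on all 9 for both conjugates against PBS, and called at an adjusted p of at most 0.05 and a fold change of at least 1.5. SE is the log2 fold change divided by the square root of F. CPM used TMM-adjusted totals, log2 CPM a prior count of 2, and gene lengths came from GENCODE. Named were the 10 genes, fixed relatives, up to 4 called genes a list whose mean reached 50 counts, and the nearest 3 genes by correlation; some genes that this rule names are not reported here. STK31, FBXO32, DAB2IP, CDKN2A and VASH1 were named after their values were seen. Alternatives were DESeq2 1.42.0, RLE size factors, no filter, a minimum of 10 counts in every library, glmTreat, calls without a fold change minimum, all 9 libraries in 1 fit, a block on the first digit of the title's code, longest transcripts and leaving out each library. The scripts were tested on simulated data.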

Additional observations from a re-analysis of the deposited data

How the results depend on the processing

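The 6 calls among the measured genes held in each comparison with PBS under every alternative listed above. Without a fold change minimum, 8, 7 and 9 genes were called in P-DXd-titled, T-DXd-titled and all treated tumors, and no alternative turned the sign of a difference from PBS in these genes. In the comparison of the conjugate groups, DESeq2 called 1 of them (CDCA7) and 24 genes in all, against 4 by edgeR, 1 by glmTreat, 0 with all 9 libraries in 1 fit and 0 to 8 when a library was left out. There, the log2 difference of EZH2 ran from −0.057 to 0.33, that of SUZ12 from −0.046 to 0.047 and that of DNMT3B from −0.14 to 0.10 when a library was left out, so their signs changed with the libraries used. Of genes called in P-DXd-titled tumors, 3742 by the design used, glmTreat gave 1130 and leaving out a library gave 1857 to 3936, the lowest without P-DXd-titled replicate 3 and 2464 without P-DXd-titled replicate 2. Of 4263 in T-DXd-titled tumors, glmTreat gave 1696 and leaving out a library 2820 to 4641, the lowest without T-DXd-titled replicate 3. Of 4855 in all treated tumors, glmTreat gave 2536 and no fold change minimum 8398. Related genes called were 17, 18 and 18 in P-DXd-titled, T-DXd-titled and all treated tumors, 30, 39 and 53 without a fold change minimum, 4, 6 and 9 by glmTreat, and 9 to 20, 15 to 18 and 17 to 20 when a library was left out. With the longest transcript as gene length, the ratio of EZH1 to EZH2 was 0.512, 1.75 and 1.95 in PBS, P-DXd-titled and T-DXd-titled tumors, and that of CDCA7L to CDCA7 was 34.0 in T-DXd-titled tumors. No paired analysis was possible because the labels give the groups no shared replicate numbers; the block on the first digit of the title's code changed no call among the measured genes. With 3 libraries a group, and PBS replicate 1 apart from the other vehicle tumors, the size of the difference is least certain for HELLS.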
